A study of Mus musculus with 8 samples.

Results

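The genes described here are 7 markers and regulators of trophoblast, the lineage that forms the placenta: the transcription factors Tead4, Cdx2, Elf5, Gata3, Tfap2c and Hand1, and Tpbpa, which encodes a trophoblast-specific protein that is not a transcription factor. They were chosen by name, with earlier results of these data known. All 7 have an entry among the 23284 gene entries of the authors' deposited table. RNA was sequenced from 2 clonal lines of mouse embryonic stem (ES) cells, both of mixed strain: clone 6 carries a Ctcfl transgene that doxycycline induces, and clone 7 does not carry it. The 4 groups were the transgenic line with doxycycline at 2 µg/ml, the transgenic line without doxycycline, the non-transgenic line with doxycycline at 2 µg/ml and the non-transgenic line without doxycycline. All had been kept on mouse embryonic fibroblast feeders and were then replated without feeders for 48 h. Each group is 2 libraries, 1 from each of 2 experiments, but the table gives 1 FPKM (fragments per kilobase of transcript and sequencing depth) per gene and group. Levels therefore carry no SD, and library depth is unknown. Each line is a single clone, so the transgene and other differences between the clones cannot be told apart. The sources used here do not name the promoter that drives the transgene.

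ES cells come from the inner cell mass of the blastocyst, and trophoblast comes from its outer layer, the trophectoderm. In outer cells low Hippo signalling lets the coactivator Yap1 work with Tead4, which switches on Cdx2 and Gata3, and Cdx2 represses Pou5f1. Tfap2c and Elf5 help to maintain trophoblast stem cells, the promoter of Elf5 is known to be methylated in ES cells, Hand1 drives the formation of trophoblast giant cells, and Tpbpa marks the spongiotrophoblast of the placenta. Several of these genes also act elsewhere: Cdx2 in the posterior of the embryo, Hand1 in heart and lateral mesoderm, and Tfap2c in primordial germ cells.

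Promoter windows, 250 bases before to 50 bases after an annotated start, were found for 4 of the 7 genes (Cdx2, Gata3, Elf5 and Tpbpa) in the RefSeq sequences of build GRCm38.p6. The windows of Cdx2 (chr5:147307200-147307499, minus strand), Gata3 (chr2:9878551-9878850, minus strand) and Tpbpa (chr13:60941887-60942186, minus strand) are shown because Cdx2 had the largest ratio between the lines among the tested genes, Gata3 is another factor downstream of Tead4, and Tpbpa was listed at 0 in all groups. Capitals mark matches on either strand to GCCNNNGGC, the palindrome bound by AP-2 factors such as Tfap2c. They also mark CCCTC, which is the core of the Ctcf motif. The Tead motif was searched as CATTCC. The Gata motif was searched as AGATAA.
Cdx2: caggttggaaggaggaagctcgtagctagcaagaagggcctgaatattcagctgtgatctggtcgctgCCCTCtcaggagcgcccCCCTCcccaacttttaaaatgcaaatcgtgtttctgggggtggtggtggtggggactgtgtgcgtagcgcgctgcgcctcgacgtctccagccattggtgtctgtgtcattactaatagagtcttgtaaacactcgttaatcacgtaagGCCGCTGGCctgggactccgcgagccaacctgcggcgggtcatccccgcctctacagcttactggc
Gata3: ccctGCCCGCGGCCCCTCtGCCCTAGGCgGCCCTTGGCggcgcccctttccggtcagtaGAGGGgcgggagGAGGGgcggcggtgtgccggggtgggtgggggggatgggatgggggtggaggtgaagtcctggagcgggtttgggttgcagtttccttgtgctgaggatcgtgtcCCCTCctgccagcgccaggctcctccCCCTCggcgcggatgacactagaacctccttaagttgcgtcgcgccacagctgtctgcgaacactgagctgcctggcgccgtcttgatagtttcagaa
Tpbpa: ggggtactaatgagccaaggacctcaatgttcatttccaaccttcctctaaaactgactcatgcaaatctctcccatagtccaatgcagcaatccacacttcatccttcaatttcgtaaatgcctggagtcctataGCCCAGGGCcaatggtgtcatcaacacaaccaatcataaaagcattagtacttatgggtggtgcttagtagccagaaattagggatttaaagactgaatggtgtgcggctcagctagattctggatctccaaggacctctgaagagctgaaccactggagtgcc

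The AP-2 letters occurred 1 time in the Cdx2 window, starting 16 bases before the annotated start, 3 times in the Gata3 window and 1 time in the Tpbpa window. In Gata3 an AP-2 match is followed directly by a match to the Ctcf core, without overlap. Of all 32851 promoter windows of this length 16.6% held the AP-2 letters. The Ctcf core stood 2 times in Cdx2, 5 times in Gata3 and was not in the Tpbpa window, and 65.95% of all windows held it. Neither the Tead nor the Gata letters were in these 3 windows, and 14.7% and 11.2% of all windows held them. Of the 2 windows found for Elf5, which are not printed, 1 held a Tead match, each held 2 matches to the Ctcf core, and neither held the AP-2 or the Gata letters. These matches describe letters, not binding.

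**Figure D1:**
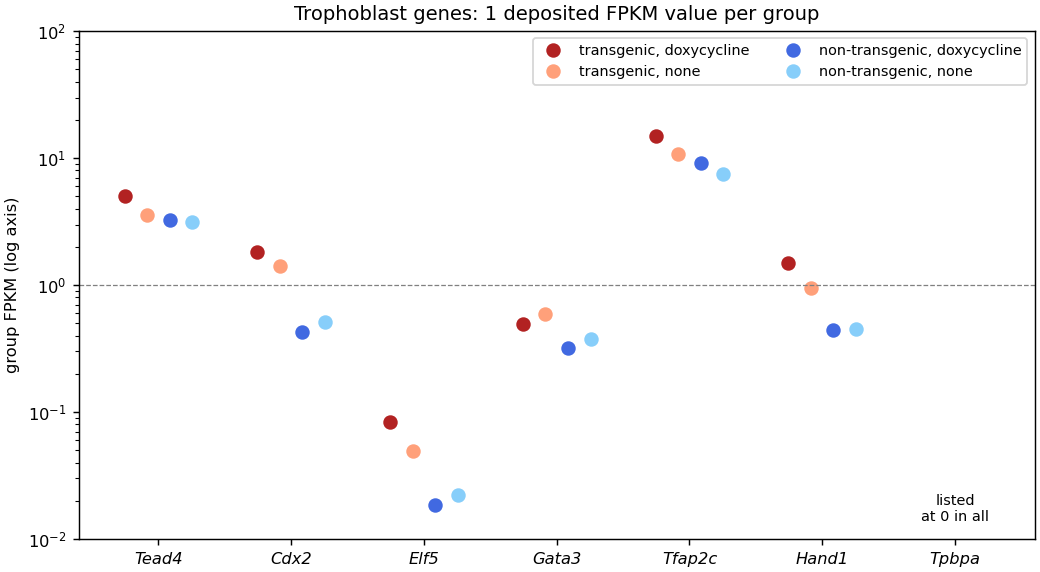
The deposited FPKM of each gene (log axis) is plotted for the 4 groups, 1 point per group with no error, and the dashed line is at 1 FPKM. Tfap2c and Tead4 were above 1 FPKM in every group, Cdx2 only in the transgenic line, Hand1 only in the transgenic line with doxycycline, and Tpbpa was listed at 0.

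Only Tfap2c and Tead4 were above 1 FPKM in all groups, as the plot of FPKM by group shows. Tfap2c reached 14.9 FPKM in the transgenic line with doxycycline, above 77.6% of the gene entries in that group. Elf5 and Gata3 stayed below 1 FPKM in all groups, and Tpbpa was listed at 0 in all. All 6 genes with a level were higher in the transgenic than in the non-transgenic line, both under doxycycline and in its absence. Of all genes tested, 46.3% were higher in the transgenic line under doxycycline and 49.8% in its absence. Elf5 is among the 6 genes but was not tested by the authors. The same clones stand behind both line comparisons, so their directions are not independent. The genes were also chosen with earlier results of these data known, so their shared direction is a description and not a test. None of the differences of the 6 genes passed the authors' test when only line or only doxycycline differed. All of these counts rest on 1 value per group. In bulk RNA such as this, more cells of a type and more RNA per cell cannot be told apart.

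A gene was called where the authors' status shows that a test was made and their q-value was under 0.05. With doxycycline in the transgenic line 0 of the 5 members tested were called, against 0.108% of 13003 genes tested. In the non-transgenic line 0 of 2 were called, against 0% of 12908 genes, of which 14 had an unadjusted p under 0.05 by the authors' Cufflinks test. The line comparisons called 0 of 5 members without doxycycline, against 1.37% of 13047 genes, and 0 of 5 with doxycycline, against 1.52% of 13064 genes. Before adjustment, p was under 0.05 in the authors' deposited table for member counts of 1, 0, 2 and 3 in these 4 comparisons, and for 1.08%, 0.108%, 6.59% and 7.90% of all genes tested. The folds and log2 ratios of single genes below are of FPKM with no pseudocount, the scale of the authors' test. That scale was chosen after the values were seen, in place of the planned log2 ratio of FPKM + 1, which is given beside it for the members and is smaller for genes near or below 1 FPKM. Standard errors are approximate, taken as the log2 ratio over the deposited test statistic.

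Tead4 (mm10 chromosome 6, 128227143 to 128300813, protein coding) lies upstream in the trophectoderm programme. It was at 5.03 FPKM in the transgenic line with doxycycline, 3.56 FPKM in the transgenic line without it, 3.26 FPKM in the non-transgenic line with doxycycline and 3.16 FPKM in the non-transgenic line without it. The transgenic line with doxycycline was highest and the other 3 groups lay close together. Doxycycline in the transgenic line gave a 1.41-fold ratio (log2 0.50 ± 0.42 SE, p = 0.111, q = 1.00 in the authors' deposited table), and the approximate 95% interval of the log2 ratio ran from -0.33 to 1.33. On FPKM + 1 the log2 ratio of Tead4 was 0.40 for doxycycline in the transgenic line, and 0.50 with and 0.13 without doxycycline between the lines. Against the non-transgenic line the ratio was 1.54-fold with doxycycline (p = 0.0825) and 1.13-fold without it (p = 0.617) in the authors' deposited table, and neither was called. No neighbouring levels of Tead4 differed by the authors' test. Annotated genes on the opposite strand overlap Tead4 and Gata3, and whether reads were counted by strand is not stated.

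Tead4 was a minor member of its family. Tead2, a paralog that binds the same motif and also works with Yap1, was at 114 and 132 FPKM in the transgenic line and at 96.7 and 109 FPKM in the non-transgenic line, each under doxycycline and in its absence. Tead1 was at 13.9 to 17.7 FPKM and Tead3 at 11.6 to 16.9 FPKM. Of the summed FPKM of the 4 Tead genes, Tead4 made up 3.27% and 2.15% in the transgenic line and 2.55% and 2.29% in the non-transgenic line in the same order. Since FPKM is scaled to transcript length, these are levels relative to each other within a group.

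The Hippo pathway list around Tead4 held 17 genes, all tested in each comparison. With doxycycline 0 were called in either line, and their median log2 ratio of FPKM + 1 was 0.01 in the transgenic line and 0.04 in the non-transgenic line, beside medians over all genes of 0.00 and 0.02. Between the lines, 1.37% of all genes tested were called without doxycycline and 1.52% with it. Of the Hippo genes, 2 were called higher in the transgenic line without doxycycline and the same number with it. These were Amot, which encodes an angiomotin that holds Yap1 outside the nucleus, and Cyr61, a secreted matrix protein and classic Yap1 target. Amot was at 8.68 FPKM in the transgenic and 3.64 FPKM in the non-transgenic line under doxycycline, and at 8.70 and 3.99 FPKM without it. Cyr61 was at 117 and 66.1 FPKM under doxycycline and at 108 and 64.3 FPKM without it, in the same order. The folds were 2.38 and 2.18 for Amot (q = 0.00812 in both) and 1.77 and 1.67 for Cyr61 (q = 0.0200 and q = 0.0462) in the authors' deposited table. The other abundant genes of the list were not called: Ctgf, another Yap1 target, was at 78.4 and 77.9 FPKM in the transgenic line and 65.7 and 65.3 FPKM in the non-transgenic line, and Yap1 itself at 58.6 and 61.1 FPKM and at 55.2 and 53.5 FPKM, under doxycycline and in its absence. The list median was 0.21 without and 0.19 with doxycycline between the lines, beside 0.00 and -0.02 over all genes.

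Cdx2 (chromosome 5, 147300900 to 147307249), the homeobox factor that specifies trophectoderm, was at 1.84 and 1.42 FPKM in the transgenic line under doxycycline and in its absence. In the non-transgenic line it was at 0.430 FPKM under doxycycline and 0.514 FPKM without it. Both transgenic groups were therefore above both non-transgenic ones. With doxycycline the ratio of the transgenic over the non-transgenic line was 4.28-fold (log2 2.098 ± 0.66 SE, p = 0.0086, q = 0.367 in the authors' deposited table). Without doxycycline it was 2.76-fold (log2 1.47 ± 0.64 SE, p = 0.0203, q = 0.608 in the authors' deposited table). Neither was called. On the planned scale of FPKM + 1 these log2 ratios of Cdx2 were 0.99 with and 0.68 without doxycycline. Doxycycline in the transgenic line gave a 1.29-fold ratio (log2 0.37 ± 0.48 SE, 0.23 on FPKM + 1, p = 0.373 in the authors' deposited table), and in the non-transgenic line the authors made no test.

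The paralogs of Cdx2 were as low. Cdx1, a caudal factor of the posterior embryo, was at 1.06 and 0.553 FPKM in the transgenic line and at 0.0979 and 0.0961 FPKM in the non-transgenic line under doxycycline and in its absence, and was not tested. Cdx4 was at 0.618 to 0.791 FPKM across the groups. Cdx2 was the highest of the 3 genes in the transgenic line, with 50.8% and 54.8% of their sum, and Cdx4 was the highest in the non-transgenic line, where Cdx2 had 32.6% and 39.7%.

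Gata3 (chromosome 2, 9857078 to 9878600), a zinc finger factor that acts beside Cdx2 in trophectoderm, was at 0.494 and 0.590 FPKM in the transgenic line and at 0.320 and 0.378 FPKM in the non-transgenic line under doxycycline and in its absence. It was the 1 member with a level that was lower with doxycycline in the transgenic line, by a log2 ratio of -0.26 ± 0.78 SE (p = 0.565 in the authors' deposited table). The line ratios were 1.54-fold with and 1.56-fold without doxycycline (p = 0.266 and p = 0.212 in the authors' deposited table). On FPKM + 1 the log2 ratios of Gata3 were -0.09 for doxycycline in the transgenic line, and 0.18 with and 0.21 without doxycycline between the lines. No neighbours in its order of levels that were tested differed by that test, and the lowest pair was not tested. Gata2, which acts with Gata3 in placental trophoblast, was the highest Gata gene, at 1.52 to 1.81 FPKM, and Gata4, an endoderm and heart factor, was at 0.923 to 1.15 FPKM. Gata1 was at 0.319 to 0.572 FPKM, Gata6 at 0.362 to 0.434 FPKM and Gata5 at 0.0127 to 0.0706 FPKM.

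Elf5 (chromosome 2, 103412098 to 103450988), the Ets factor that reinforces the trophoblast stem cell state, was at 0.0833 and 0.0490 FPKM in the transgenic line and at 0.0185 and 0.0221 FPKM in the non-transgenic line under doxycycline and in its absence. The authors made no test of it in any comparison. Its ratio between the lines was 4.51-fold with doxycycline at these levels, a log2 ratio of 2.17 that was 0.09 on FPKM + 1, and that value has no error. Elf2, a broadly expressed Ets factor, was at 16.4 to 18.2 FPKM. Elf1 was at 3.51 to 4.29 FPKM, Elf4 at 0.724 to 0.988 FPKM and Ehf at 0.0339 FPKM or less. Elf3, an epithelial factor, was at 10.5 and 11.2 FPKM in the transgenic line and 6.13 and 7.59 FPKM in the non-transgenic line under doxycycline and in its absence. Of these, the tested ones were not called.

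Tfap2c (chromosome 2, 172549593 to 172558621), the AP-2 gamma factor, had the highest level of the 7 genes. It was at 14.9 FPKM in the transgenic line with doxycycline, 10.9 FPKM in the transgenic line without it, 9.19 FPKM in the non-transgenic line with doxycycline and 7.51 FPKM in the non-transgenic line without it. Each group was lower than the one before it in this order, and no neighbouring pair was called. Doxycycline gave a 1.37-fold ratio in the transgenic line (log2 0.45 ± 0.34 SE, p = 0.0418, q = 0.886) and a 1.22-fold ratio in the non-transgenic line (log2 0.29 ± 0.48 SE, p = 0.276, q = 1.00) in the authors' deposited table. The transgenic over the non-transgenic line was 1.62-fold with doxycycline (log2 0.69 ± 0.38 SE, p = 0.00755, q = 0.338) and 1.448-fold without it (log2 0.53 ± 0.45 SE, p = 0.0283, q = 0.721) in the authors' deposited table. On FPKM + 1 the log2 ratios of Tfap2c were 0.42 and 0.26 for doxycycline in the transgenic and the non-transgenic line, and 0.64 with and 0.48 without doxycycline between the lines.

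The ends of this order were also compared by the authors, in groups that differ in both line and doxycycline. In the transgenic line with doxycycline Tfap2c was at 14.9 FPKM, against 7.51 FPKM in the non-transgenic line without it, a 1.98-fold ratio that was called (log2 0.99 ± 0.37 SE, p = 5e-05, q = 0.00812 in the authors' deposited table). This comparison was taken up after its values were seen, the effects of line and doxycycline cannot be told apart in it, and 1 of 5 members tested was called against 1.62% of 13060 genes. Cdx2 and Hand1 had larger ratios there, 3.58-fold (q = 0.286) and 3.35-fold (q = 0.466), and were not called in the authors' deposited table. The deposited p and test statistic of Tfap2c do not lead to the same p: a normal test on its statistic would give 0.232 for the lines without doxycycline, where the authors' p was 0.0283. For Cdx2 in the lines with doxycycline the normal value would be 0.00159, where the authors' p was 0.0086, so the standard errors here are a rough guide in both directions.

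Within the AP-2 family Tfap2c made up 91.6% and 90.1% of the summed FPKM in the transgenic line and 89.2% and 84.0% in the non-transgenic line under doxycycline and in its absence. Tfap2a, which also acts in trophoblast and neural crest, was at 0.519 to 0.663 FPKM and Tfap2e at 0.384 to 0.751 FPKM, with Tfap2b and Tfap2d at 0.0706 FPKM or less. Tfap2c, Gata3 and Elf5 all lie on chromosome 2, as does the annotated Ctcfl gene, 535 kb beyond the end of Tfap2c. That distance is to the cells' own Ctcfl gene and not to the transgene. Ctcfl was at 0.995 and 0.403 FPKM in the transgenic line and 0.498 and 0.513 FPKM in the non-transgenic line under doxycycline and in its absence. With doxycycline in the transgenic line it was not called (p = 0.0062, q = 0.296 in the authors' deposited table). These values do not separate RNA of the transgene from that of the cells' own gene.

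**Figure D2:**
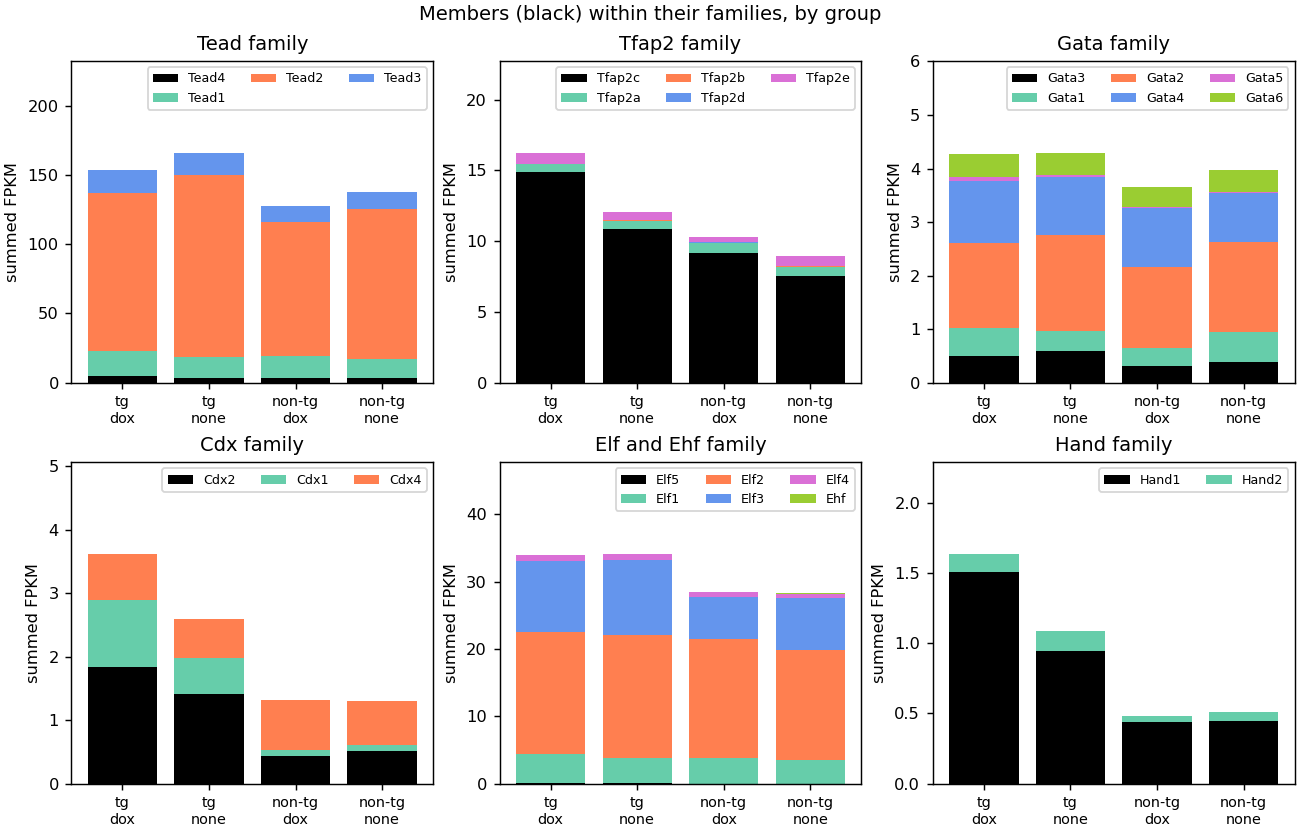
Stacked bars give the summed FPKM of each gene family by group (tg, transgenic line; non-tg, non-transgenic line; dox, doxycycline; none, no doxycycline), with the member in black and no error shown. Tfap2c and Hand1 made up most of their families' sums, while Tead4 was 2.15% to 3.27% of the Tead sum and Elf5 below 1% of the Elf and Ehf sum.

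Hand1 (chromosome 11, 57828713 to 57832147), the helix-loop-helix factor of giant cells, was at 1.504 and 0.947 FPKM in the transgenic line and at 0.441 and 0.449 FPKM in the non-transgenic line under doxycycline and in its absence. As for Cdx2, both transgenic groups lay above both non-transgenic ones. With doxycycline the line ratio was 3.41-fold (log2 1.77 ± 0.68 SE, p = 0.0199, q = 0.602), and without it 2.11-fold (log2 1.08 ± 0.66 SE, p = 0.0945, q = 1.00) in the authors' deposited table. On the planned scale of FPKM + 1 these log2 ratios of Hand1 were 0.80 with and 0.43 without doxycycline. In the transgenic line doxycycline gave a 1.59-fold ratio (log2 0.67 ± 0.49 SE, 0.36 on FPKM + 1, p = 0.166 in the authors' deposited table). Its paralog Hand2, a factor of heart and limb, was at 0.0404 to 0.141 FPKM.

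Tpbpa (chromosome 13, 60938692 to 60941935) was listed at 0 in all 4 groups, as was its relative Tpbpb, and no ratio is given. An FPKM of 0 can be a failed estimate, so this does not show that the gene was silent.

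**Figure D3:**
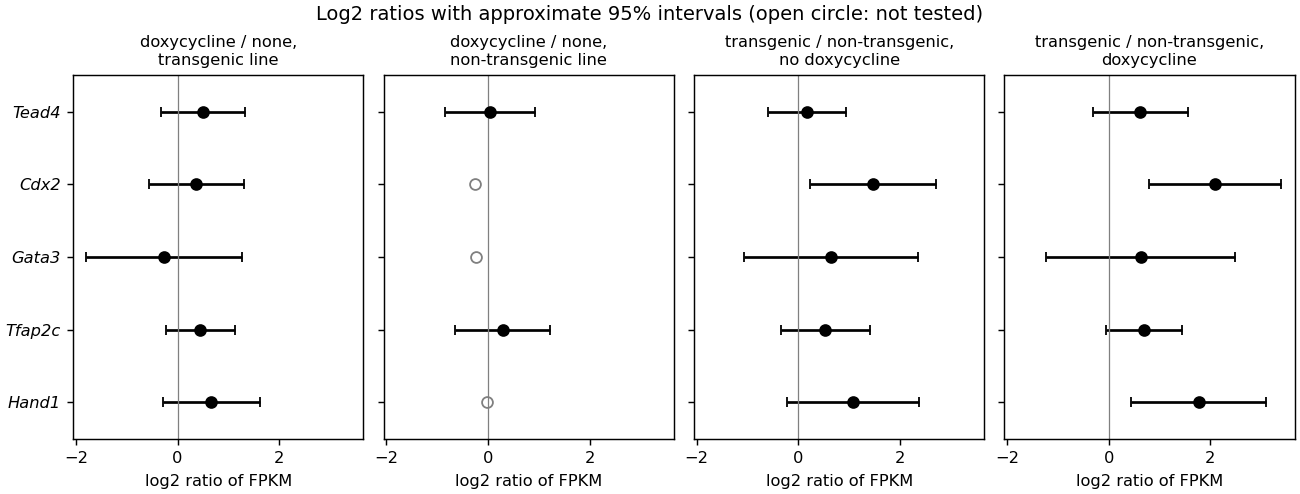
Log2 ratios of FPKM, with no pseudocount, are plotted for the 5 members tested in at least 1 comparison, with approximate 95% intervals from the deposited test statistics; open circles had no test. Intervals lay above 0 for Cdx2 in both line comparisons and for Hand1 with doxycycline, though none of these was called at q under 0.05. The interval of Tfap2c between the lines with doxycycline ran from -0.05 to 1.44. Its p by the authors' test, 0.00755, was below the 0.0086 of Cdx2.

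How large a ratio had to be before it was called at such levels can be read from all genes. Without doxycycline, among 1016 genes averaging below 1 FPKM over the lines, as Cdx2, Hand1 and Gata3 did, 4 were called (0.394%), and the smallest log2 ratio called with both groups above 0 was 1.97 in size. With doxycycline, Hand1 was in the same class of 1026 genes, of which 7 were called from 1.74 in size, and Cdx2 was among 1231 genes averaging 1 to 2 FPKM, of which 9 were called from 1.36. The log2 ratios of Hand1 and Cdx2, 1.77 and 2.098, were above these smallest values and were not called.

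Whether the response to doxycycline differed between the lines could be tested for the 2 members tested in both. The log2 response of Tead4 was larger in the transgenic line by 0.45 ± 0.62 SE (p = 0.464 from a normal test on the authors' statistics), and that of Tfap2c by 0.16 ± 0.59 SE (p = 0.785 from the same test on the authors' statistics). Neither was called, against 0.142% of 12638 genes. By this test 58 of the 12638 genes had an unadjusted p under 0.05. That is fewer than the threshold alone would give with no true difference, so its p-values run large. This approximate test rests on 2 libraries per group and does not show that the responses were alike. For Cdx2, Hand1, Gata3 and Elf5 no such test could be made.

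Other regulators of trophoblast stem cells were called in both directions between the lines. Of the 16 listed, 15 are in the table, and Tfap2a also stands among the paralogs. With doxycycline in the transgenic line 1 of 15 tested was called, Id2, an inhibitor of helix-loop-helix factors, which fell to 22.8 FPKM, against 39.8 FPKM without it (q = 0.0462 in the authors' deposited table). Adjusting p within this comparison alone left 0 genes called, Id2 included. In the non-transgenic line 0 of 14 were called. Between the lines 1 was called higher and 2 lower in the transgenic line, both without and with doxycycline, and 12 were not. Over all genes tested, 1.37% were called without and 1.52% with doxycycline. All lists here were chosen with earlier results of these data known. Eomes, a T-box factor of trophoblast stem cells and of the primitive streak, was at 15.2 FPKM in the transgenic and 2.67 FPKM in the non-transgenic line under doxycycline, and at 18.8 and 2.79 FPKM without it, 5.70-fold and 6.75-fold. Sox2, which works with Esrrb in trophoblast stem cells and with Pou5f1 in ES cells, was at 121 and 196 FPKM and at 105 and 168 FPKM in the same order. Fgf4, the ligand that sustains trophoblast stem cells and is made by ES cells, was at 25.5 and 53.1 FPKM and at 28.9 and 49.4 FPKM. These 6 calls had q between 0.00812 and 0.0429 in the authors' deposited table. The abundant chromatin remodeller Smarca4 was at 77.4 to 81.4 FPKM in all groups and was not called. The list medians were 0.13 and 0.10 with doxycycline in the transgenic and non-transgenic line, and 0.00 and -0.20 between the lines without and with doxycycline.

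Genes of differentiated trophoblast were mostly at very low levels. Of the 25 listed, 24 are in the table and 9 reached 1 FPKM in a group. Gcm1, the factor of syncytiotrophoblast, was at 0.543 and 0.419 FPKM in the transgenic line and 0.241 and 0.138 FPKM in the non-transgenic line under doxycycline and in its absence. The placental lactogen gene Prl3b1 and the cathepsin gene Ctsq were listed at 0 in all groups. The abundant genes were Phlda2 and Peg10, imprinted genes of placental growth, and Mdfi, an inhibitor of myogenic factors that is also expressed in trophoblast. Phlda2 fell to 162 FPKM in the transgenic line without doxycycline, against 314 FPKM in the non-transgenic line (log2 -0.95 ± 0.13 SE, q = 0.00812 in the authors' deposited table), and with doxycycline it was at 182 and 284 FPKM and not called. Peg10 was at 76.5 and 55.0 FPKM in the transgenic line and 72.7 and 64.6 FPKM in the non-transgenic line under doxycycline and in its absence, and Mdfi at 20.7 and 23.0 FPKM and at 21.2 and 27.0 FPKM. Phlda2 was the 1 call among 9 tested in the 4 comparisons, and 1.37% of all genes tested were called in the comparison that called it. The medians were 0.17 and -0.09 with doxycycline in the transgenic and non-transgenic line, and -0.09 and 0.33 between the lines without and with doxycycline. These medians depend on the expression minimum: for genes at 5 FPKM or more those between the lines were -0.22 and 0.019, and with no minimum the 0.17 and the 0.33 were both 0.

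The simple epithelial keratins, which trophoblast also makes, had the highest list medians between the lines, 1.05 without and 1.89 with doxycycline, beside 0.52 and -0.33 for doxycycline in the transgenic and the non-transgenic line. In the transgenic line Krt8 was at 184 and 112 FPKM and Krt18 at 167 and 96.3 FPKM under doxycycline and in its absence, and both were called (q = 0.0200 and q = 0.00812 in the authors' deposited table). Over all genes tested there, 0.108% were called. As for Id2, neither keratin call remained when p was adjusted within this comparison alone, which left 0 genes called. In the non-transgenic line they were at 26.8 and 30.8 FPKM for Krt8 and at 35.04 and 41.8 FPKM for Krt18 under doxycycline and in its absence, and 0 of 4 keratins were called for doxycycline there. Between the lines Krt8 and Krt18 were called higher without doxycycline (3.62-fold and 2.30-fold), and Krt8, Krt18 and Krt19 with it (6.87-fold, 4.76-fold and 3.12-fold), all at q = 0.00812 in the authors' deposited table. Over all genes tested, the share called was 1.37% without and 1.52% with doxycycline. With doxycycline Krt19 was at 38.5 FPKM in the transgenic line and 12.4 FPKM in the non-transgenic line. Of the 21 paralogs of the members 11 were tested in each comparison and 0 were called in any, with medians of 0.05 and 0.00 for doxycycline and 0.14 and 0.15 between the lines without and with doxycycline, of which the 0.14 was 0.27 for genes at 5 FPKM or more.

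**Figure D4:**
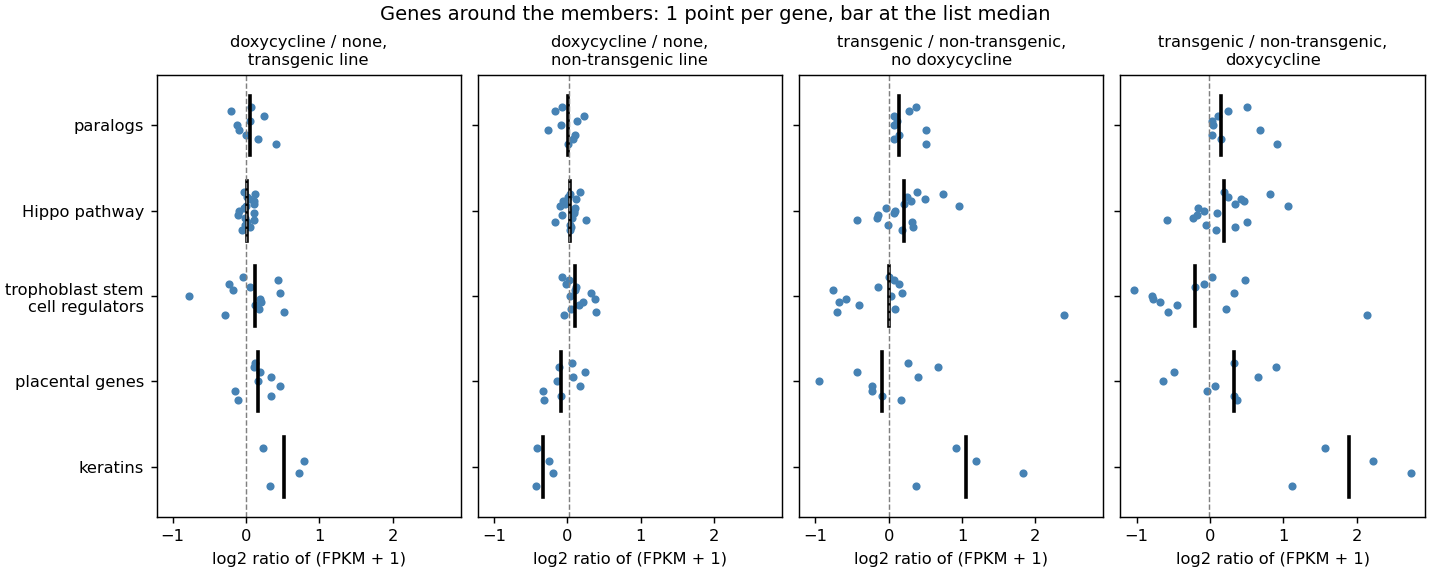
Each point is a listed gene that reached 1 FPKM in a group, placed by its log2 ratio of (FPKM + 1) in 4 comparisons; black bars are list medians and the dashed line is the median of all genes. All 4 keratins lie above 0 in both line comparisons, as do all 9 paralogs shown, whose medians are smaller (0.14 without and 0.15 with doxycycline). Of 17 Hippo genes, 12 without and 11 with doxycycline lie above 0 between the lines. The trophoblast stem cell regulators and the placental genes lie on both sides of 0, and the point far right among the regulators is Eomes.

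Markers of other cell types moved with some of these values. All 8 ES cell markers were above 1 FPKM in every group, with summed levels of 3219 to 3541 FPKM, of which Pou5f1 and Dppa5a made up most in every group. Single ES cell markers differed between the lines: Zfp42 was called higher in the transgenic line, 4.39-fold with and 3.11-fold without doxycycline, as was Nanog, 1.86-fold and 1.69-fold, while Sox2 was called lower and the other 5 were not called (q under 0.05 in the authors' deposited table). The 12 trophoblast markers, 7 of them the genes described here, summed to 43.2 and 40.3 FPKM in the transgenic line and 18.8 and 18.2 FPKM in the non-transgenic line under doxycycline and in its absence, with 6, 5, 4 and 4 of them at 1 FPKM or more. Eomes and Tfap2c, with the values given above, made up most of the difference in this sum. Tpbpa was at 0 in all groups and the giant cell gene Prl3d1 also in the non-transgenic line. The 9 measured primitive streak and mesoderm markers, genes of a tissue that also uses Cdx2, Hand1 and Eomes, summed to 109 and 98.2 FPKM in the transgenic line and 11.2 and 12.7 FPKM in the non-transgenic line, with 6, 5, 3 and 3 at 1 FPKM or more and Msgn1 at 0 in the non-transgenic line. Fgf8 and T made up most of this sum in every group, at 55.1 and 36.3 FPKM in the transgenic line with doxycycline. T, Fgf8 and Wnt3 were called higher in the transgenic line (q = 0.00812 in the authors' deposited table). Their ratios were 18.0-fold, 9.48-fold and 7.36-fold with doxycycline and 13.4-fold, 8.81-fold and 4.89-fold without it. Mixl1 was called higher only with doxycycline and Evx1 only without it. Kdr was not called, and Mesp1, Tbx6 and Msgn1 were not tested between the lines. Kdr was lower in the transgenic line, at 0.471 against 0.856 FPKM with doxycycline and 0.577 against 0.882 FPKM without it. Tbx6 was at 0.441 against 0.529 FPKM with doxycycline and 0.545 against 0.542 FPKM without it. The 10 feeder markers summed to 435 and 410 FPKM in the transgenic line and 352 and 351 FPKM in the non-transgenic line, with 9, 9, 9 and 7 at 1 FPKM or more and none at 0. Fn1 and Col1a1 made up most of this sum in every group, at 207 and 140 FPKM in the transgenic line with doxycycline. Thy1, Col3a1 and Pdgfra were lower in the transgenic than in the non-transgenic line with doxycycline, and only Thy1 was without it. Germ cell markers, of a lineage that uses Tfap2c, summed to 78.05 and 61.8 FPKM and to 58.4 and 52.5 FPKM, and endoderm markers to 7.15 to 8.10 FPKM. Dppa3 made up most of the germ cell sum in every group. The part of these cell types in the values of Cdx2, Hand1 and Tfap2c was not tested.

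Genes were ranked by the likeness of their 4 group values to those of a member, as the Euclidean distance between centred log2 values of FPKM + 1. The added 1 shrinks the differences of low genes, so genes near Cdx2 and Hand1 by this measure can differ less in fold: Tor2a, near Cdx2, was at 60.7 FPKM in the transgenic and 30.2 FPKM in the non-transgenic line under doxycycline, and B4galt6, near Hand1, at 23.2 and 12.9 FPKM. For Tead4 the nearest were 2610019F03Rik (distance 0.03), the lipid transporter gene Abca7 (0.04) and Arid3a (0.05), a DNA-binding factor that is also among the listed trophoblast regulators. For Cdx2 they were Leng9 (0.05), Tor2a (0.06) and Ccdc80 (0.07), and for Hand1 B4galt6 (0.03), Phlda1 (0.03) and F3 (0.04). For Tfap2c they were A4galt (0.06), Fndc1 (0.09) and Tmem37 (0.13). Only 4 values per gene enter this measure: 33 of 4947 candidates lay within 0.1 of Tead4, 10 of 1855 of Cdx2, 19 of 2742 of Hand1 and 2 of 2194 of Tfap2c.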

How the data were processed

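The deposited table holds 139704 lines, 6 pairwise comparisons of 4 groups (2 libraries each) for every one of 23284 gene entries. The authors deposited expression as FPKM, 1 value per gene and group with both experiments combined, so no library could be left out. The submitters' processing notes name TopHat2 2.0.8, Cufflinks 2.1.1 and build mm10; the sources used here do not give the annotation, strand setting or normalization mode. The p-value and q-value of each test are the authors', as deposited; the smallest p is 5e-05, and q matches Benjamini-Hochberg adjustment over the 78127 tests of all 6 comparisons. The test statistic is the authors' score, deposited with the sign of the comparison's other order and turned round here. The labels call the libraries of a group biological replicates from a repeated experiment.

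Levels were read from the comparisons with the non-transgenic line without doxycycline, and ratios computed from them, the doxycycline or transgenic group on top. Ratios of single genes are printed with no pseudocount, a choice made after seeing the data, with the planned log2 ratio of FPKM + 1 beside those of the members in the 4 comparisons. A pseudocount of 1 was used for list medians, over genes that reached 1 FPKM. The test of the difference between responses was run on simulated data drawn with the same standard errors that it uses. That run checks the calculation only and cannot show that the standard errors are right. Deposited starts count from 0 and were raised by 1. Named genes are the 7 members, the paralogs, other listed genes called in 1 of the 4 comparisons, the 3 most abundant of each list and the 3 nearest in pattern. Other genes named, among them Ctcfl, Gcm1, Prl3b1 and Ctsq, were added after their values were seen. Members and lists were chosen with earlier results of these data known. Python 3.11.15, pandas 2.3.3 and SciPy 1.17.1 were used.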

Additional observations from a re-analysis of the deposited data

How the results depend on the processing

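Adjusting p within each comparison alone left 0 of the 14 genes called with doxycycline in the transgenic line, and gave 197, 223 and 256 in place of 179 without doxycycline, 199 with it and 211 for the comparison that differs in line and doxycycline. Counts of called members were the same under it and at a q threshold of 0.1. With scaling to a common upper quartile, the planned log2 ratios of the 6 members above 0 kept their direction in all 24 cases. The scale factors ran only from 0.988 to 1.008, so this is a weak check. A pseudocount of 0.1, or none (added after seeing the data), cannot reverse a direction, so the 24 of 24 kept under each is no check. The size of the ratios did not hold. Between the lines with doxycycline the log2 ratio with no pseudocount, the scale of the folds in the text, was 2.098 for Cdx2 (planned 0.99). It was 1.77 for Hand1 (planned 0.80) and 2.17 for Elf5 (planned 0.09). List medians moved by over 0.1 on the log2 scale in 5 cases, whose cause is the other set of genes kept. The placental list stood at 0 with no expression minimum, in which most genes are near 0, for doxycycline in the transgenic line and for the lines with doxycycline, and at -0.22 and 0.019 for genes at 5 FPKM or more between the lines without and with doxycycline. The paralog median was 0.27 at 5 FPKM or more between the lines without doxycycline. Standard errors taken from the deposited p gave p = 0.361 for Tead4 and p = 0.646 for Tfap2c in the normal test of the authors' values, and 0 of 12638 genes called in place of 18, with 26 at an unadjusted p under 0.05.

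No paired analysis was possible because the table gives 1 value per group, and leaving out a replicate was not run for the same reason. Library depth is unknown, so no counting interval is given. Elf5 and Tpbpa had no test in any comparison.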
